A study of Mus musculus with 12 samples.

Results

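The genes described here are 34 genes of heart muscle, picked by name from the 23420 genes listed in both count tables. They cover the sarcomere, calcium handling, the natriuretic peptides and conduction between heart cells. The list names them without a threshold on any measured value, but it was drawn up with earlier results of these data known. In the sarcomere, myosin motors on the thick filament pull on actin in the thin filament, and troponin switches the pull on when calcium rises. Calcium enters through channels in the surface membrane, is released from the sarcoplasmic reticulum and is pumped back into it. Pacemaker channels help to start the beat, and gap junctions carry it from cell to cell. Atrial and ventricular muscle use different versions of several of these proteins, and the developing heart and developing skeletal muscle share many others.

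Polyadenylated RNA was measured in whole mouse embryos of embryonic day 12.5. In the *Carm1* line, on the strain C57BL/6, 3 embryos homozygous for the null allele *Carm1* tm1Mtb (*Carm1* KO/KO, which lacks exons 2 and 3) were compared with 3 wild-type embryos. In the *Pax3* line, a closed colony on a mixed background from CBA/Ca, 101 and C3H/He, 3 *Pax3* Sp2H/Sp2H embryos were compared with 3 wild-type embryos of the same colony. CARM1 is an arginine methyltransferase and transcriptional coactivator, and PAX3 is a transcription factor of the dorsal neural tube, the neural crest and the migrating muscle precursors. Both alleles are present in every cell of the mutant embryos, so nothing limits their loss to the heart. The labels number 3 replicates per group and do not say whether these embryos came from separate litters, so *P* values measure the spread between these samples only.

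The 12 libraries held between 17183344 and 23518692 counts. Counts of *Carm1* were 1299, 1237 and 1293 in the mutants of its line against 2542, 3384 and 2808 in the wild types, without overlap. *Pax3* had 501, 484 and 426 counts in *Pax3* Sp2H/Sp2H and 634, 431 and 659 in wild-type libraries, a log2 fold change of -0.43, and a count over the whole gene does not read the mutated bases. Wild-type replicate 3 of the *Carm1* line, and wild-type replicates 2 and 3 and Sp2H replicate 3 of the *Pax3* line, held at least 100 Y-linked counts. The other libraries held 23 or fewer. Since the libraries are of whole embryos, every value is an average over all tissues, and a smaller share of heart cells cannot be told apart from less RNA of these genes in each heart cell.

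Levels below are CPM, counts scaled to a common library size after normalization by the trimmed mean of M values (TMM), and they are given for replicates 1, 2 and 3 in turn. Between genes, levels are compared per kilobase of transcript (RPKM, on the longest basic transcript of each gene). In wild-type embryos of the *Carm1* line the highest of the 34 was *Actc1*, the actin of the heart's thin filament, at 191 ± 4.72 RPKM (SD, n = 3). *Atp2a2* (78.2 ± 2.82), *Tnnc1* (72.5 ± 5.33) and *Myl4* (70.9 ± 4.28) followed, the last 2 within each other's spread. In wild-type embryos of the *Pax3* line *Actc1* led as well, at 154 ± 7.27 RPKM, with *Atp2a2* (86.8 ± 4.26) and *Gja1* (72.8 ± 3.57) next. The lowest that were tested were *Xirp1*, *Ryr2* and *Trdn*, between 0.405 and 1.04 RPKM in wild-type embryos of both lines. *Xirp2*, encoding an actin-binding repeat protein of striated muscle, was close to absent. It held 0, 0 and 2 counts in *Carm1* KO/KO, 0, 1 and 3 in their wild types, 0, 3 and 0 in *Pax3* Sp2H/Sp2H and 0, 0 and 0 in their wild types, and it was not tested. The other 33 genes passed the filter on low counts in each line.

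The promoters of 29 of the 34 genes are in the RefSeq table used here (GRCm38.p6, 36 start sites in all), and none was listed for *Atp2a2*, *Sln*, *Tcap*, *Xirp1* and *Trdn*. The 250 bases before each start site were searched on both strands for the CArG box, the site bound by serum response factor, and for the MEF2 site, the binding sequence of the MEF2 factors of muscle. A CArG box was present in 4 of the 29 genes (13.8%: *Myl3*, *Myl7*, *Actc1* and *Ldb3*) and in 1.62% of the 27025 genes in the table (1.47% of its 32851 promoters). A MEF2 site was present in 4 of the 29 (*Mybpc3*, *Casq2*, *Myoz2* and *Xirp2*) and in 3.42% of all genes (2.92% of promoters). The shorter MCAT element (CATTCC) was in 9 of the 29 and in 14.4% of all genes (12.6% of promoters). A GATA site, searched as AGATAA, was in 8 of the 29 and in 11.4% of all genes (9.99% of promoters). These are matches of letters in a short window and no measure of binding. The 88 bases from 120 to 33 before the start site follow for the 3 genes that were lower in both mutants (*Actc1*, *Casq2* and *Actn2*), for the gene with the highest rise in *Pax3* Sp2H/Sp2H (*Myl7*) and for 3 of the genes that moved in opposite directions in the lines (*Myl3*, *Mybpc3* and *Tnnt2*). They read 5′ to 3′ on the strand of the gene, capitals mark a CArG box or MEF2 site, and no window overlaps an annotated exon. The *Actc1* and *Myl3* windows lie inside those genes, upstream of a start site within them, and the others lie outside the gene they belong to.
Actc1, chr2:114052908-114052995, minus strand, CArG box: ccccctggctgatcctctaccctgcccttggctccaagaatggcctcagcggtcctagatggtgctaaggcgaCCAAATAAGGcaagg
Casq2, chr3:102086295-102086382, plus strand, MEF2 site: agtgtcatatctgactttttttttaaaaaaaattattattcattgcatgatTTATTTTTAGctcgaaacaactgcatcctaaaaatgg
Actn2, chr13:12340765-12340852, minus strand, neither motif: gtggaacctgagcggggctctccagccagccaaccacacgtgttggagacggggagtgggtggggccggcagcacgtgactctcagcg
Myl7, chr11:5898815-5898902, minus strand, CArG box: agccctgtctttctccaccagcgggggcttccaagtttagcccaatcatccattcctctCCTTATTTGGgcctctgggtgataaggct
Myl3, chr9:110763558-110763645, plus strand, CArG box: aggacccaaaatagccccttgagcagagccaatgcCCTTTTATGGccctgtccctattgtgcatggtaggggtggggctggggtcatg
Mybpc3, chr2:91118024-91118111, plus strand, MEF2 site: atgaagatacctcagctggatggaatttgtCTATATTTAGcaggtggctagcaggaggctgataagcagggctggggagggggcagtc
Tnnt2, chr1:135836214-135836301, plus strand, neither motif: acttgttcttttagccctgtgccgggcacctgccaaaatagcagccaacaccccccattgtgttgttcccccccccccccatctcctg

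In *Carm1* KO/KO embryos all the heart muscle genes that passed the test were lower. Of the 33 tested, 32 had lower levels than in wild type, and 14 of them were differentially expressed, which here means a false discovery rate (FDR) adjusted *P* below 0.05 in edgeR's quasi-likelihood test, adjusted over all genes by the Benjamini-Hochberg method. None was called higher. The median log2 fold change over the 33 was -0.34, beside 0.00136 over all 15811 genes tested. Across all genes 13.3% were called, 7.83% lower and 5.49% higher. The mutant and wild-type libraries did not overlap for 19 genes that were lower and 1 that was higher, where 30% of all genes showed no overlap. With DESeq2, 13 were called lower and 0 higher.

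In *Pax3* Sp2H/Sp2H embryos the same genes went both ways. Of the 33 tested, 12 were lower and 21 higher, with 3 called lower (*Actc1*, *Actn2* and *Casq2*) and 8 called higher (*Myl2*, *Myl3*, *Myl4*, *Myl7*, *Mybpc3*, *Tnnt2*, *Tnni3* and *Nppa*). The median log2 fold change was 0.073, beside -0.0026 over the 15724 genes tested. Across all genes 24.5% were called in this line, 10.5% lower and 14% higher. The groups did not overlap for 6 genes that were lower and 8 that were higher, and 39.6% of all genes showed no overlap. The plot of fold changes by role sets the lines side by side.

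**Figure D1:**
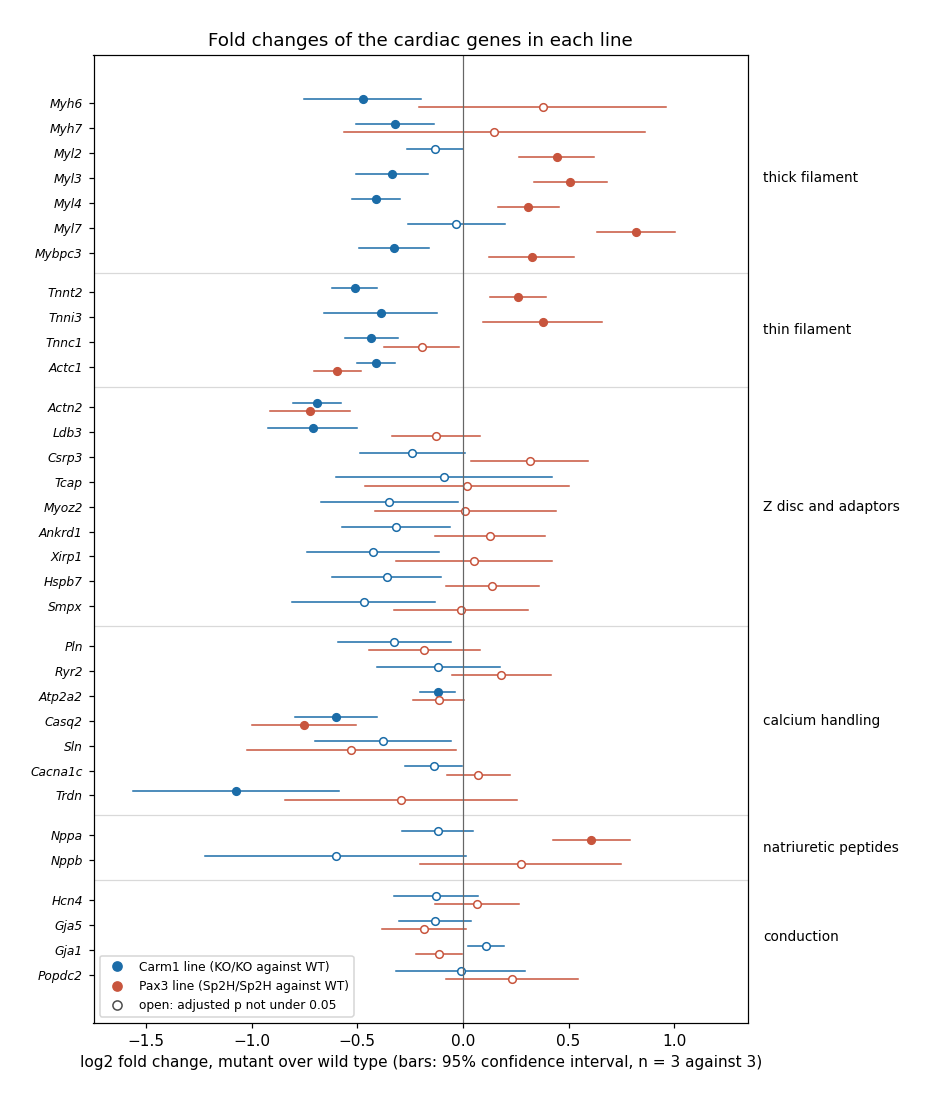
Log2 fold changes (mutant over wild type, x axis) of the 33 tested heart muscle genes, grouped by role. Bars are 95% confidence intervals computed from the edgeR fit (n = 3 against 3). Blue points are the Carm1 line, red points the Pax3 line, and filled points had an FDR adjusted P below 0.05. All but 1 of the blue points (Gja1) lie left of 0, while the red points of the 7 thick filament genes all lie right of 0 and those of Actc1, Actn2 and Casq2 lie on the left with the blue ones.

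The thick filament genes encode the alpha and beta myosin heavy chains (*Myh6* and *Myh7*), the light chains on their necks (*Myl2*, *Myl3*, *Myl4* and *Myl7*) and the cardiac myosin-binding protein C (*Mybpc3*). All 7 were lower in *Carm1* KO/KO, 5 of them differentially expressed, and all 7 were higher in *Pax3* Sp2H/Sp2H, again with 5 differentially expressed. *Myl4* had 49.4, 51.0 and 50.6 CPM in *Carm1* KO/KO and 63.7, 65.4 and 71.4 CPM in wild type, a log2 fold change of -0.41 (standard error 0.056, edgeR FDR adjusted *P* = 2.46e-06). Every mutant library was below every wild-type library. In the *Pax3* line the same gene had 62.6, 57.9 and 61.9 CPM in mutants and 44.0, 48.7 and 54.2 CPM in wild type, with no overlap in the opposite direction (log2 fold change 0.31, standard error 0.070, edgeR FDR adjusted *P* = 0.0019). This call was lost once length and GC offsets were fitted (0.03, edgeR FDR adjusted *P* = 0.763).

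*Myl3*, the essential light chain of ventricular and slow skeletal muscle, fell from 23.6, 24.6 and 22.6 CPM in wild type to 18.9, 20.4 and 16.8 CPM in *Carm1* KO/KO (log2 fold change -0.34, edgeR FDR adjusted *P* = 0.00589). It rose from 17.3, 18.5 and 18.1 CPM to 26.2, 26.0 and 24.5 CPM in *Pax3* Sp2H/Sp2H (log2 fold change 0.51, edgeR FDR adjusted *P* = 5.79e-05). The groups were apart in both lines, in opposite directions. In the *Carm1* line the call was lost without KO replicate 3 (log2 fold change -0.27, edgeR FDR adjusted *P* = 0.0672) or wild-type replicate 2 (-0.30, 0.0519).

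*Mybpc3* had 21.3, 22.2 and 21.3 CPM in *Carm1* KO/KO and 30.8, 25.8 and 25.3 CPM in wild type (log2 fold change -0.33, edgeR FDR adjusted *P* = 0.00569). The *Pax3* Sp2H/Sp2H libraries held 26.6, 31.4 and 22.4 CPM against 21.4, 21.0 and 21.7 CPM in wild type (log2 fold change 0.33, edgeR FDR adjusted *P* = 0.0162). The mutant libraries of the *Pax3* line were widely spread, from just above the wild types upwards. That call was lost without Sp2H replicate 2 (log2 fold change 0.20, edgeR FDR adjusted *P* = 0.166), wild-type replicate 1 (0.33, 0.0521) or wild-type replicate 2 (0.32, 0.0508).

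The regulatory light chains differed from these in the *Carm1* line. *Myl2*, of the ventricle and of slow skeletal fibers, had 34.9, 37.5 and 37.7 CPM in *Carm1* KO/KO and 43.3, 39.9 and 37.6 CPM in wild type (log2 fold change -0.13, edgeR FDR adjusted *P* = 0.195), and the groups overlapped. *Myl7*, of the atria, had 23.0, 18.3 and 15.7 CPM against 18.1, 18.8 and 21.4 CPM, and KO replicate 1 was the highest of all 6 libraries (log2 fold change -0.03, 95% confidence interval -0.26 to 0.20, edgeR FDR adjusted *P* = 0.896). Both rose in *Pax3* Sp2H/Sp2H. *Myl2* had 36.3, 37.7 and 39.5 CPM against 27.4, 24.7 and 31.1 CPM in wild type (log2 fold change 0.44, edgeR FDR adjusted *P* = 0.000408). *Myl7* had 29.5, 31.5 and 27.4 CPM against 14.9, 17.3 and 17.8 CPM, the highest fold change of the 33 genes in this line (log2 fold change 0.82, standard error 0.089, edgeR FDR adjusted *P* = 1.6e-07). Neither gene had overlapping groups in the *Pax3* line.

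*Myh6* and *Myh7* lie next to each other on chromosome 14 and are close in sequence, and how reads that fit both were counted is not given in the sources used here. *Myh6* had 52.7, 48.8 and 44.5 CPM in *Carm1* KO/KO and 80.3, 63.8 and 60.0 CPM in wild type (log2 fold change -0.47, edgeR FDR adjusted *P* = 0.0396). *Myh7* had 99.0, 114 and 102 CPM against 148, 130 and 117 CPM (log2 fold change -0.32, edgeR FDR adjusted *P* = 0.0291). Both were lower in every mutant library, and wild-type replicate 1 was the highest for both. The *Myh6* call was lost without KO replicate 2 (edgeR FDR adjusted *P* = 0.105) or 3 (0.0678), the *Myh7* call without KO replicate 1 (0.0796) or 3 (0.0907) or wild-type replicate 2 (0.0658), and both in one fit of all 12 libraries (0.179 and 0.399). Libraries of the *Pax3* line had overlapping levels: *Myh6* had 55.9, 86.9 and 59.6 CPM in mutants and 58.2, 49.3 and 48.2 CPM in wild type, and *Myh7* had 83.3, 123 and 88.1 CPM against 112, 81.7 and 71.7 CPM. Sp2H replicate 2 was the highest for both (log2 fold changes 0.38 and 0.15, edgeR FDR adjusted *P* = 0.302 and 0.744). An antisense gene on the other strand, *D830015G02Rik*, overlaps 463 nt of *Myh7* exons, and the strand setting of the counting is not given in the sources used here.

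The 4 thin filament genes were all differentially expressed and lower in *Carm1* KO/KO. *Tnnt2*, encoding cardiac troponin T, stood out for its small spread, with 47.4, 47.3 and 47.6 CPM in *Carm1* KO/KO and 67.1, 67.4 and 68.5 CPM in wild type (log2 fold change -0.51, edgeR FDR adjusted *P* = 1.55e-08). Mutants of the *Pax3* line instead had 55.7, 58.1 and 55.3 CPM, above the 45.9, 45.4 and 49.7 CPM of their wild types (log2 fold change 0.26, edgeR FDR adjusted *P* = 0.00452). Both contrasts were free of overlap and opposite in sign, but with offsets for length and GC content the value in the *Pax3* line was 0.04 (edgeR FDR adjusted *P* = 0.757). *Tnni3*, encoding the cardiac troponin I, went the same 2 ways at a lower level. It had 7.19, 6.61 and 7.07 CPM in *Carm1* KO/KO and 10.1, 7.74 and 9.70 CPM in wild type (log2 fold change -0.39, edgeR FDR adjusted *P* = 0.044), and 8.81, 9.15 and 8.57 CPM in *Pax3* Sp2H/Sp2H against 5.66, 8.63 and 6.31 CPM (log2 fold change 0.38, edgeR FDR adjusted *P* = 0.0453). In the second contrast wild-type replicate 2 lay within the mutants. Both *Tnni3* calls were close to the threshold: DESeq2 made neither (adjusted *P* = 0.138 and 0.101), and leaving out any one library but wild-type replicate 2 of the line ended the call in each line (edgeR FDR adjusted *P* = 0.0948 to 0.152 in the *Carm1* line and 0.0905 to 0.221 in the *Pax3* line).

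*Actc1*, the cardiac alpha-actin that early skeletal muscle also makes, was lower in both mutants. It had 223, 209 and 203 CPM in *Carm1* KO/KO and 275, 289 and 281 CPM in wild type (log2 fold change -0.41, edgeR FDR adjusted *P* = 2.41e-08). Its levels in *Pax3* Sp2H/Sp2H were 143, 157 and 149 CPM against 239, 219 and 221 CPM (log2 fold change -0.60, edgeR FDR adjusted *P* = 7.04e-09). The groups were far apart in both lines. *Tnnc1*, the calcium-binding troponin C of heart and slow skeletal muscle, was lower in *Carm1* KO/KO at 38.4, 38.8 and 39.2 CPM against 47.9, 54.6 and 54.5 CPM (log2 fold change -0.43, edgeR FDR adjusted *P* = 5.19e-06). Its levels in the *Pax3* line were 23.1, 24.2 and 27.8 CPM in mutants and 30.7, 27.3 and 28.1 CPM in wild type, with Sp2H replicate 3 inside the wild-type range (log2 fold change -0.20, edgeR FDR adjusted *P* = 0.0992). The thin filament held genes of both directions in the *Pax3* line, with 2 called higher and 1 called lower. This split did not hold with offsets for length and GC content, which were fitted together. With them 2 were called lower (*Actc1* and *Tnnc1*) and 0 higher, and the median of the 4 went from 0.032 to -0.23.

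**Figure D2:**
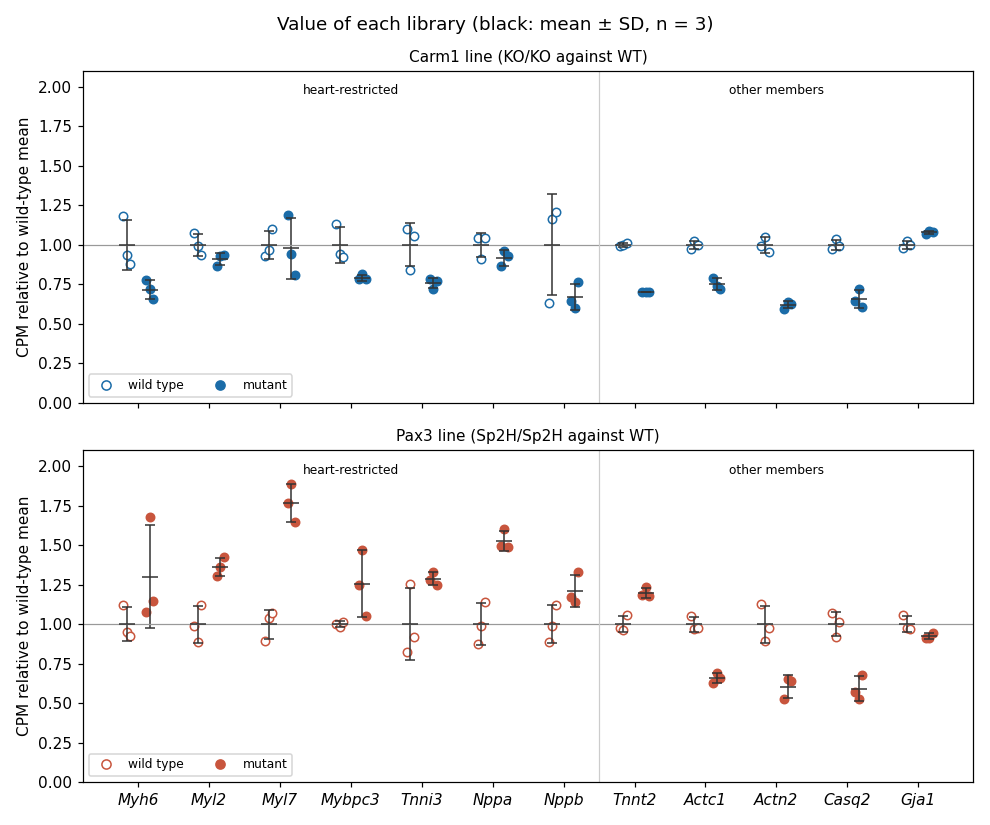
CPM of 12 heart muscle genes in each library, divided by the wild-type mean of the line (y axis); open points are wild-type and filled points mutant libraries, black bars give the mean ± SD (n = 3), the upper panel is the Carm1 line and the lower panel the Pax3 line. Tnnt2, Actc1, Actn2 and Casq2 are below the wild types in the upper panel with no overlap, while in the lower panel Myl7, Nppa, Myl2 and Tnnt2 are above them and Actc1, Actn2 and Casq2 are below.

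The Z disc and adaptor genes include *Actn2*, the alpha-actinin that anchors thin filaments, and *Ldb3*, which binds it. Of the 9 tested, all were lower in *Carm1* KO/KO with 2 differentially expressed, and in *Pax3* Sp2H/Sp2H 3 were lower and 6 higher with 1 differentially expressed. *Actn2* had 43.3, 46.5 and 45.3 CPM in *Carm1* KO/KO and 72.3, 76.4 and 69.2 CPM in wild type (log2 fold change -0.69, edgeR FDR adjusted *P* = 9.88e-11). Levels in *Pax3* Sp2H/Sp2H were 26.7, 33.2 and 32.5 CPM against 57.4, 45.5 and 49.8 CPM (log2 fold change -0.72, edgeR FDR adjusted *P* = 2.74e-06). It was thus lower in every mutant library of both lines, by 38.0% and 39.5%. *Ldb3* had 11.1, 9.86 and 9.78 CPM in *Carm1* KO/KO and 18.4, 15.0 and 17.2 CPM in wild type (log2 fold change -0.71, edgeR FDR adjusted *P* = 8.85e-06). In the *Pax3* line it had 11.8, 11.9 and 13.0 CPM against 12.5, 13.4 and 14.3 CPM, with overlap (log2 fold change -0.13, edgeR FDR adjusted *P* = 0.393).

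The other 7 tested genes of the Z disc and adaptor group did not pass the threshold in either line. Their log2 fold changes in *Carm1* KO/KO were -0.47 for *Smpx*, -0.43 for the actin-binding *Xirp1*, -0.36 for the small heat shock protein gene *Hspb7*, -0.35 for the calcineurin-binding *Myoz2*, -0.32 for the ankyrin repeat gene *Ankrd1*, -0.24 for the LIM protein gene *Csrp3* and -0.09 for the titin cap gene *Tcap*. *Hspb7*, *Smpx* and *Xirp1* were near the threshold (edgeR FDR adjusted *P* = 0.0547, 0.0563 and 0.0606), and each passed when 1 wild-type library was left out: *Hspb7* without replicate 2 (0.0289), *Smpx* without replicate 1 (0.00859) and *Xirp1* without replicate 3 (0.0379). *Ankrd1* passed without wild-type replicate 1 (0.0366) or KO replicate 3 (0.0464). The log2 fold changes of these 7 in *Pax3* Sp2H/Sp2H lay between -0.0092 (*Smpx*) and 0.32 (*Csrp3*), and *Csrp3* passed without wild-type replicate 3 (log2 fold change 0.46, edgeR FDR adjusted *P* = 0.0272).

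Calcium handling held the largest fold change of the set. *Trdn* encodes triadin, which ties the release channel of the sarcoplasmic reticulum to calsequestrin, and it had 1.32, 1.46 and 2.24 CPM in *Carm1* KO/KO against 3.08, 3.22 and 4.19 CPM in wild type. These rest on 24, 26 and 38 counts against 52, 75 and 86, with no overlap (log2 fold change -1.07, standard error 0.24, edgeR FDR adjusted *P* = 0.00203). In the *Pax3* line *Trdn* had 32, 39 and 32 counts in mutants and 34, 23 and 58 in wild type, and the groups overlapped (log2 fold change -0.29, edgeR FDR adjusted *P* = 0.462). *Casq2*, the cardiac calsequestrin that stores calcium in the reticulum, was lower in both mutants. It had 11.6, 12.9 and 10.9 CPM in *Carm1* KO/KO and 17.4, 18.5 and 17.7 CPM in wild type (log2 fold change -0.60, edgeR FDR adjusted *P* = 3.13e-05). Mutants of the *Pax3* line had 7.02, 6.51 and 8.40 CPM against 13.2, 11.3 and 12.5 CPM (log2 fold change -0.75, edgeR FDR adjusted *P* = 4.03e-05). The mutants were below the wild types throughout, by 34.1% and 40.7%.

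*Atp2a2*, the calcium pump of the reticulum and also a pump of most other cells, differed little. It had 327, 319 and 321 CPM in *Carm1* KO/KO and 365, 341 and 347 CPM in wild type (log2 fold change -0.12, edgeR FDR adjusted *P* = 0.0486). The difference was small, and the call held without wild-type replicate 3 and was lost without any other library of the line (edgeR FDR adjusted *P* = 0.0877 to 0.179). In the *Pax3* line the log2 fold change was also -0.12, with no overlap (edgeR FDR adjusted *P* = 0.154). Its 2 small inhibitors, phospholamban (*Pln*) and the atrial sarcolipin (*Sln*), had log2 fold changes of -0.32 and -0.38 in *Carm1* KO/KO (edgeR FDR adjusted *P* = 0.0999 and 0.113) and of -0.18 and -0.53 in *Pax3* Sp2H/Sp2H (0.322 and 0.109). The release channel *Ryr2* and the surface calcium channel *Cacna1c*, which also serves nerve cells and smooth muscle, had log2 fold changes of -0.12 and -0.14 in the *Carm1* line and 0.18 and 0.07 in the *Pax3* line, with overlapping groups in both (edgeR FDR adjusted *P* = 0.651, 0.179, 0.261 and 0.499). *Cacna1c* passed in the *Carm1* line without wild-type replicate 3 (log2 fold change -0.18, edgeR FDR adjusted *P* = 0.0499).

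The natriuretic peptides are hormones of the heart muscle cell, and *Nppa* marks the atria and the trabeculated ventricle of the embryo. *Nppa* had 19.2, 21.3 and 20.6 CPM in *Carm1* KO/KO and 23.2, 20.2 and 23.2 CPM in wild type, with overlap (log2 fold change -0.12, edgeR FDR adjusted *P* = 0.381). It rose in *Pax3* Sp2H/Sp2H, with 35.5, 38.0 and 35.4 CPM against 20.7, 23.5 and 27.1 CPM, with every mutant above every wild type (log2 fold change 0.61, standard error 0.089, edgeR FDR adjusted *P* = 1.46e-05). *Nppb* was much rarer. It had 21, 19 and 23 counts in *Carm1* KO/KO and 19, 48 and 44 in wild type (log2 fold change -0.60, edgeR FDR adjusted *P* = 0.2), and 46, 44 and 55 counts in *Pax3* Sp2H/Sp2H against 32, 30 and 46 (log2 fold change 0.27, edgeR FDR adjusted *P* = 0.425). Wild-type replicate 1 of the *Carm1* line was as low as the mutants, whereas in the *Pax3* line the CPM values did not overlap. Neither difference was detectable by the test at these counts.

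None of the 4 conduction genes passed in either line. *Gja1*, encoding connexin 43, a gap junction protein of ventricular muscle and of many other embryonic tissues, was the only one of the 33 that was higher in *Carm1* KO/KO, at 224, 228 and 226 CPM against 205, 215 and 209 CPM (log2 fold change 0.11, edgeR FDR adjusted *P* = 0.0806). Connexin 43 transcripts were at 211, 212 and 219 CPM in *Pax3* Sp2H/Sp2H against 245, 226 and 224 CPM in wild type (log2 fold change -0.11, edgeR FDR adjusted *P* = 0.114). The groups did not overlap in either line, although neither difference passed the test. *Gja5*, encoding the atrial and conduction system connexin 40 that arterial endothelium also makes, had log2 fold changes of -0.13 and -0.18 in the *Carm1* and *Pax3* lines (edgeR FDR adjusted *P* = 0.332 and 0.171). The pacemaker channel gene *Hcn4* had -0.13 and 0.07 (0.431 and 0.656), and the membrane protein gene *Popdc2* had -0.01 and 0.23 (0.977 and 0.285). *Popdc2* passed in the *Pax3* line without wild-type replicate 2 (log2 fold change 0.44, edgeR FDR adjusted *P* = 0.0385).

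Taken apart by chamber, the atrial genes (*Myh6*, *Myl4*, *Myl7*, *Sln*, *Nppa* and *Gja5*) had a median log2 fold change of -0.26 in *Carm1* KO/KO, with 2 of 6 called lower, and the ventricular genes (*Myh7*, *Myl2* and *Myl3*) had -0.32, with 2 of 3 called lower. In *Pax3* Sp2H/Sp2H embryos the medians were 0.34 (3 of 6 called higher) and 0.44 (2 of 3 called higher), and with offsets for length and GC content they were 0.18 (2 of 6) and 0.23 (2 of 3). By their medians the chamber groups went the same way within a line, although the atrial *Sln* and *Gja5* had negative fold changes in both. These genes are not all particular to the heart. *Myh7*, *Myl3*, *Myl4* and *Sln* are among those that developing skeletal muscle also uses, and slow skeletal fibers also make *Myl2*. The part of skeletal muscle in the chamber medians was not tested. In mice *Myh6* is the atrial chain of the embryo and becomes the main chain of the adult ventricle too. The balance of chamber genes was compared by ratios of counts within a library, which do not depend on library size. The ratio of *Myh6* to *Myh7* counts was 0.532, 0.427 and 0.437 in *Carm1* KO/KO and 0.543, 0.490 and 0.513 in wild type, a difference of -0.15 on the log2 scale (*P* = 0.3, two-sided exact permutation test). It was 0.671, 0.706 and 0.676 in *Pax3* Sp2H/Sp2H and 0.518, 0.604 and 0.672 in wild type, a difference of 0.20 (*P* = 0.2, exact permutation test). The ratio of *Myl7* to *Myl2* was 0.660, 0.487 and 0.416 in *Carm1* KO/KO and 0.418, 0.472 and 0.568 in wild type (log2 difference 0.09, *P* = 0.7, exact permutation test). It was 0.814, 0.834 and 0.696 in *Pax3* Sp2H/Sp2H and 0.545, 0.702 and 0.573 in wild type (log2 difference 0.37, *P* = 0.2, exact permutation test). With 3 libraries against 3 the exact permutation test cannot go below *P* = 0.1, and the groups overlapped in each of the 4 comparisons. The sign of the *Myl7* to *Myl2* difference in the *Carm1* line turned without KO replicate 1 (-0.10) or wild-type replicate 1 (-0.02).

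Since whole embryos also hold skeletal muscle, the genes were set apart by where else they are known to be made. A group of 7 is made mainly by the heart among embryonic tissues (*Myh6*, *Myl2*, *Myl7*, *Tnni3*, *Mybpc3*, *Nppa* and *Nppb*), although *Myl2* is also made by slow skeletal fibers, and it is called heart-restricted here. All 7 were lower in *Carm1* KO/KO, 3 of them called, with a median log2 fold change of -0.33. All 7 were higher in *Pax3* Sp2H/Sp2H, 5 of them called, with a median of 0.38. Their summed level was 159.5, 155.8 and 148.2 CPM in *Carm1* KO/KO and 206.9, 178.3 and 179.2 CPM in wild type. It was 194.7, 236.7 and 195.2 CPM in *Pax3* Sp2H/Sp2H and 149.9, 146.1 and 154.1 CPM in wild type. The sums did not overlap between mutant and wild type in either line. Without *Myl2*, chosen for omission after the values were seen, 6 of 6 were lower in *Carm1* KO/KO (3 called, median -0.36, summed level 110.5 to 124.6 CPM against 138.4 to 163.6 CPM) and 6 of 6 higher in *Pax3* Sp2H/Sp2H (4 called, median 0.38, 155.7 to 199 CPM against 121.4 to 123 CPM). Of the 20 genes that developing skeletal muscle also uses, 19 were tested. In *Carm1* KO/KO all 19 were lower, 10 of them called, with a median of -0.41. In *Pax3* Sp2H/Sp2H 8 were lower and 11 higher, with 3 called in each direction and a median of 0.020. The summed level of the 20 was 581.5 to 601.7 CPM in *Carm1* KO/KO against 787.5 to 810.9 CPM in wild type. It was 495.2 to 554.6 CPM in *Pax3* Sp2H/Sp2H against 561.2 to 621.2 CPM in wild type. These sums were thus lower without overlap in both lines, and the genes with the highest CPM weigh most in them.

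Markers of skeletal muscle moved beside them. Of 20 such markers, 10 were called lower in *Carm1* KO/KO and none higher (median log2 fold change -0.38), and 14 were called lower in *Pax3* Sp2H/Sp2H and none higher (median -0.78). Their summed level was 630.7 to 645.8 CPM against 823.1 to 933.5 CPM in wild type in the *Carm1* line, and 263.3 to 294.8 CPM against 456.3 to 515.3 CPM in the *Pax3* line. None of the 20 was below 1 CPM in every library. In *Carm1* KO/KO the lowest adjusted *P* values belonged to *Acta1*, the skeletal alpha-actin (log2 fold change -0.90, edgeR FDR adjusted *P* = 1.12e-13), and *Myl1*, a fast skeletal light chain (-0.82, 7.79e-12). Those of *Pax3* Sp2H/Sp2H belonged to the muscle regulators *Myod1* (-1.28, 4.36e-10) and *Myog* (-1.09, 6.91e-10). One marker had a higher level in each line, *Actn3* in the *Carm1* line (log2 fold change 0.23, edgeR FDR adjusted *P* = 0.359) and *Tnnt3* in the *Pax3* line (0.13, 0.63). The 3 heart muscle genes that were lower in both mutants, *Actc1*, *Actn2* and *Casq2*, all belong to those shared with skeletal muscle, and the part of skeletal muscle in their change was not tested. For the heart-restricted genes the skeletal markers went the same way in *Carm1* KO/KO and the opposite way in *Pax3* Sp2H/Sp2H, as the plot of summed levels shows. Of 8 endothelial markers, all 8 were higher in *Carm1* KO/KO with 3 called (37.5%). In *Pax3* Sp2H/Sp2H 3 were higher and 5 lower, with 1 called higher (12.5%). Of 6 smooth muscle markers 2 were called lower and 2 higher in *Carm1* KO/KO (66.7% called), and 1 lower in *Pax3* Sp2H/Sp2H (16.7%). The shares of the skeletal markers called were 50% and 70% in the *Carm1* and *Pax3* lines. Over all genes 13.3% and 24.5% were called, so the endothelial and smooth muscle shares in the *Pax3* line were below that of all genes. The smooth muscle sum was still lower in *Pax3* Sp2H/Sp2H, at 142 to 163.2 CPM against 181.6 to 193.9 CPM, and overlapped in the *Carm1* line (255 to 265.2 against 260.2 to 271.6). The endothelial sum overlapped in the *Pax3* line (334.7 to 377.6 against 354 to 365.4 CPM). It was higher in *Carm1* KO/KO (387.5 to 408.1 against 350.8 to 378.7 CPM).

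**Figure D3:**
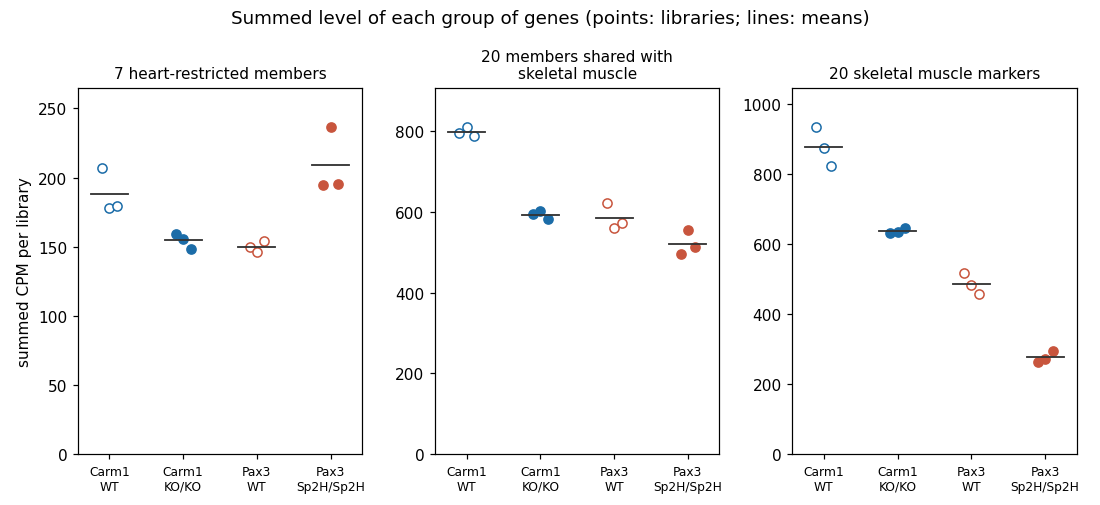
Summed CPM per library (y axes, from 0) of the 7 heart-restricted genes, the 20 genes shared with skeletal muscle and 20 skeletal muscle markers, for wild-type (open) and mutant (filled) embryos of the Carm1 line (blue) and the Pax3 line (red); lines are means of 3 libraries. The heart-restricted sum is lower in Carm1 KO/KO and higher in Pax3 Sp2H/Sp2H than in the wild types of each line, while the skeletal markers are lower in both mutants.

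The *Pax3* line carried a trend with transcript length that touched these genes, many of which are short. Over all genes with a length, the median log2 fold change fell from 0.169 in the shortest of 4 equal classes (up to 1978 nt) to 0.024, -0.039 and -0.101 in the following classes, and fold change and log2 length had r = -0.382 over 15606 genes, a description across genes that are not independent. In the *Carm1* line the medians of the classes lay between -0.010 and 0.013 (r = -0.023 over 15683 genes). Of the 33 heart muscle genes 15 lie in the shortest class of the *Pax3* line. Among them are 7 of the 8 called higher there, all but *Mybpc3*, but also *Actc1*, which was lower. When per-library offsets for transcript length and GC content were added to the fit, the 15 short genes went from a median log2 fold change of 0.273 to 0.036 in the *Pax3* line and from -0.379 to -0.376 in the *Carm1* line.

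With these offsets the *Pax3* line kept 5 of its 8 genes called higher: *Myl7* (log2 fold change 0.48, edgeR FDR adjusted *P* = 0.000158), *Nppa* (0.32, 0.00628), *Mybpc3* (0.28, 0.0409), *Myl2* (0.25, 0.0353) and *Myl3* (0.23, 0.0416). Their fold changes were smaller than without offsets, by more than 1.5 times in *Myl7*, *Nppa*, *Myl2* and *Myl3*. *Tnni3* (0.09, 0.709), *Tnnt2* (0.04, 0.757) and *Myl4* (0.03, 0.763) were no longer called. The long gene *Cacna1c* was called higher (0.19, 0.0441). *Actc1* (-0.71), *Actn2* (-0.75) and *Casq2* (-0.68) stayed called lower, and *Tnnc1* joined them (-0.49, edgeR FDR adjusted *P* = 0.000346). The count for the 33 was thus 4 lower and 6 higher, with a median of 0.035. Over all genes of the *Pax3* line higher calls went from 2198 to 1699 and lower calls from 1653 to 781, so the share that were higher went from 57.1% to 68.5%. All 7 heart-restricted genes stayed on the higher side, 4 of them called, with a median of 0.28. In *Carm1* KO/KO the offsets gave 17 genes called lower and 1 higher (*Gja1*, log2 fold change 0.11, edgeR FDR adjusted *P* = 0.0123), as *Hspb7*, *Smpx* and *Xirp1* passed too. Over all genes of that line the calls went from 2106 to 2918, with 1591 lower and 1327 higher. The plot against transcript length shows the shift of each gene.

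**Figure D4:**
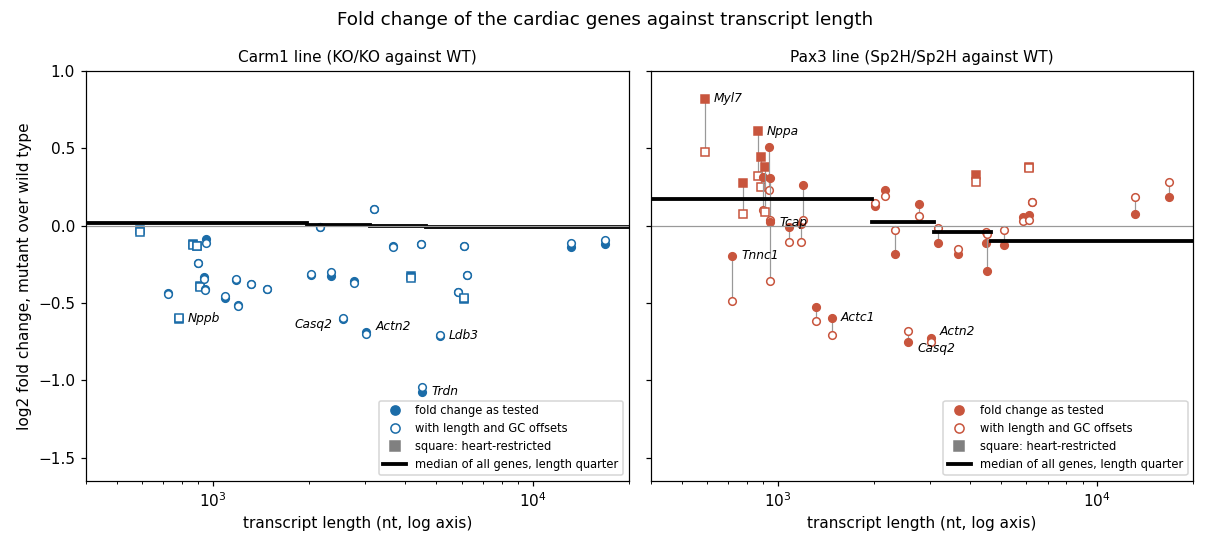
Log2 fold change (y axis) of the 33 heart muscle genes against transcript length in nt (log x axis) in the Carm1 line (left) and the Pax3 line (right); filled symbols are fold changes as tested, open symbols joined to them by grey lines have offsets for length and GC content, squares are heart-restricted genes, and black bars are medians of all genes in each of 4 length classes. In the Carm1 line the symbols nearly coincide, whereas in the Pax3 line the short genes shift downwards, with Myl7 moving from 0.82 to 0.48 and Tnnc1 from -0.20 to -0.49.

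The difference between the lines was tested itself, as the log2 fold change in *Carm1* KO/KO minus that in *Pax3* Sp2H/Sp2H in one fit of all 12 libraries, in which no control is shared. Of the 33 genes 13 differed, 11 of them with the more negative change in the *Carm1* line, beside 19.1% of the 16292 genes tested. The most negative were *Myl7* (-0.84, standard error 0.15), *Myl3* (-0.83), *Tnnt2* (-0.76), *Tnni3* (-0.76), *Nppa* (-0.72) and *Myl4* (-0.71), with edgeR FDR adjusted *P* from 3.62e-08 (*Tnnt2*) to 0.00479 (*Tnni3*). *Mybpc3* (-0.65), *Ldb3* (-0.58), *Myl2* (-0.56), *Csrp3* (-0.55) and *Hspb7* (-0.49) followed. *Gja1* (0.23, edgeR FDR adjusted *P* = 0.0109) and *Actc1* (0.20, 0.0493) differed the other way. With length and GC offsets *Tnni3* (-0.49, edgeR FDR adjusted *P* = 0.0513), *Csrp3* (-0.35, 0.172), *Hspb7* (-0.42, 0.0592) and *Gja1* (0.13, 0.0882) were lost, and *Myh6* (-0.83, 0.0476) and *Cacna1c* (-0.29, 0.0159) were gained. DESeq2 lost *Csrp3* (adjusted *P* = 0.0505) and *Hspb7* (0.0511) and gained *Myh6* (0.013). A term for Y-linked counts in edgeR also gained *Myh6* (FDR adjusted *P* = 0.0417) and lost none of the 13. *Actc1* was lost with upper-quartile scaling, no filter, a minimum of 10 counts in every library or the replicate block (edgeR FDR adjusted *P* = 0.0502 to 0.0657). The *Actc1* difference was also lost without any of 8 of the libraries (edgeR FDR adjusted *P* up to 0.155), the *Csrp3* difference without any of 6 (up to 0.0865) and the *Hspb7* difference without any of 6 (up to 0.0772). Leaving out 1 library also brought in *Myh6* (without Sp2H replicate 1 or 2, edgeR FDR adjusted *P* = 0.0474 and 0.0247), *Nppb* (*Carm1* wild-type replicate 1, 0.0387), *Trdn* (*Pax3* wild-type replicate 3, 0.0459) and *Ankrd1* (Sp2H replicate 3, 0.0374).

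For the 2 other genes that were lower in both mutants, no difference was detected. *Actn2* differed by 0.05 between the lines (95% confidence interval -0.18 to 0.27, edgeR FDR adjusted *P* = 0.812) and *Casq2* by 0.16 (-0.15 to 0.47, 0.497), and these intervals do not show that the changes were equal. By calls, 5 genes were lower in *Carm1* KO/KO and higher in *Pax3* Sp2H/Sp2H (*Mybpc3*, *Myl3*, *Myl4*, *Tnni3* and *Tnnt2*), 3 were lower in both, 6 were called in the *Carm1* line alone (*Atp2a2*, *Ldb3*, *Myh6*, *Myh7*, *Tnnc1* and *Trdn*), 3 in the *Pax3* line alone (*Myl2*, *Myl7* and *Nppa*) and 16 in neither. These counts are of the fits without offsets. With length and GC offsets *Myl4*, *Tnni3* and *Tnnt2* were not called in the *Pax3* line, and *Tnnc1* was called lower there. At least 100 Y-linked counts were held by 3 libraries of the *Pax3* line (1 mutant, 2 wild type). The other 3 (2 mutants, 1 wild type) held 23 or fewer. All 11 genes called in this line had the same direction on both sides of this split, as differences of mean CPM with no test. For all of them but *Tnni3* the mutant and wild-type libraries did not overlap, so any split had to give the same direction. The split therefore cannot tell whether sex had a part in these changes.

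Of 48 further genes of heart muscle, 45 were tested. In *Carm1* KO/KO 12 of them were called lower and none higher (median log2 fold change -0.17), which is 26.7% called beside 13.3% of all genes. In *Pax3* Sp2H/Sp2H 8 were called lower and 1 higher (median -0.086). That is 20% called, below the 24.5% of all genes called in this line. The lowest adjusted *P* values in *Carm1* KO/KO belonged to *Cacna1g*, a T-type calcium channel gene (log2 fold change -0.45, edgeR FDR adjusted *P* = 7.2e-08), and *Tnni1*, the slow skeletal troponin I that the embryonic heart also makes (-0.45, 4.33e-06). On the higher side *Pdlim5* (0.16, 0.0751) and *Corin*, the protease that cuts the natriuretic peptide precursors (0.18, 0.215), did not pass. On the lower side in *Pax3* Sp2H/Sp2H, *Synpo2l* (-0.62, 1.21e-05) and *Srl*, encoding sarcalumenin (-0.34, 0.000407), had the lowest adjusted *P* values by edgeR. *Cacna1g* was called higher there (0.19, edgeR FDR adjusted *P* = 0.0142), against its direction in the *Carm1* line, and *Jph2* (0.27, 0.0705) did not pass.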

How the data were processed

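RNA of whole E12.5 embryos was counted in 12 libraries, 3 in each of 4 groups. Per the labels and the study's methods, the authors used STAR for alignment (mm10) and featureCounts for exonic reads per gene. What they deposited are unnormalized counts, 1 column for each library. Tool versions, strand setting and the treatment of reads with several alignments are not given in the sources used here.

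The 34 genes, their subgroups and the other gene lists were chosen with earlier results of these data known. Every one of the 34 is named whatever its result. Of the other heart muscle genes and the skeletal markers, the 2 with the lowest adjusted *P* in each direction are named. Counts were tested within each line with edgeR (version 4.0.16, R 4.3.3) by its robust quasi-likelihood test, after TMM scaling and filterByExpr, with Benjamini-Hochberg adjustment over all genes tested and a threshold of 0.05. DESeq2 (version 1.42.0), which the methods of the study name, was an alternative, as were other scalings and filters, a joint fit of the 12 libraries, a block for the replicate number, a term for Y-linked counts (at least 100), offsets for transcript length and GC content (splines with 5 degrees of freedom), and leaving out each library. Ratios were compared by exact permutation. The functions were first tested on simulated counts.

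GENCODE vM21 (GRCm38, the build of mm10) held 21777 of the 23420 symbols, a further 1278 were found by an older name and 365 were not found. Replicate libraries differed by more than sampling noise (chi-square per degree of freedom 3.15 to 24.4), and no 2 libraries were identical. Precision is set by these depths and by 3 libraries per group.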

Additional observations from a re-analysis of the deposited data

Results flagged for a closer look

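The 13 genes below are given because their change differed between the lines, by the edgeR quasi-likelihood test of the interaction with Benjamini-Hochberg adjustment. Values are the log2 fold change in *Carm1* KO/KO minus that in *Pax3* Sp2H/Sp2H. For *Tnnt2* it was -0.76, for *Myl4* -0.71, for *Myl3* -0.83, for *Nppa* -0.72, for *Myl7* -0.84 and for *Myl2* -0.56. It was -0.65 for *Mybpc3*, -0.58 for *Ldb3*, -0.76 for *Tnni3*, -0.55 for *Csrp3* and -0.49 for *Hspb7*. It was positive for *Gja1* (0.23) and *Actc1* (0.20). Except for *Ldb3*, *Actc1* and *Gja1*, these genes had a positive fold change in the *Pax3* line and a negative one in the *Carm1* line. The lines also differ in strain background and colony, which cannot be told apart from a difference between the mutations.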

How the results depend on the processing

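Each choice was changed singly. Of the calls, 9 in the *Carm1* line (*Actc1*, *Actn2*, *Casq2*, *Ldb3*, *Mybpc3*, *Myl4*, *Tnnc1*, *Tnnt2* and *Trdn*) and 7 in the *Pax3* line (*Actc1*, *Actn2*, *Casq2*, *Myl2*, *Myl3*, *Myl7* and *Nppa*) held in all 15 alternatives of their line. Length and GC offsets gave 1 gene called higher in the *Carm1* line and moved the median of the *Pax3* line to 0.035. With no filter all 34 genes were tested, *Xirp2* included, and the median of the *Pax3* line over the 34 was 0.11. One fit of all 12 libraries called 6 genes lower in the *Pax3* line, with *Tnnc1*, *Atp2a2* and *Gja1* added. When each library was left out in turn, 10 to 15 genes were called in the *Carm1* line, 9 to 11 in the *Pax3* line and 10 to 14 for the difference between the lines. The median then lay between -0.36 and -0.30 in the *Carm1* line and between 0.017 and 0.13 in the *Pax3* line, and the *Myl7* to *Myl2* difference in the *Carm1* line between -0.098 and 0.23. Over all genes, calls ranged from 1224 to 2290 in the *Carm1* line and from 2454 to 4103 in the *Pax3* line, against 2106 and 3851 with all libraries, and offsets gave 2480 in the *Pax3* line. The cause was not tested.

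Each sign that turned was of a value that did not pass its own test, although some of these genes were called in another comparison. With a Y-linked term *Myl7* had 0.042 in the *Carm1* line, and *Smpx* and *Xirp1* had 0.017 and -0.071 in the *Pax3* line, where no filter gave *Smpx* 0.0010. Offsets gave -0.36 for *Tcap* and -0.11 for *Myoz2* in the *Pax3* line, and differences between the lines of 0.040 (*Tnnc1*), -0.069 (*Atp2a2*) and 0.23 (*Tcap*). Without single libraries the log2 fold change in the *Carm1* line ranged from -0.20 to 0.088 for *Myl7*, -0.25 to 0.067 for *Ryr2*, -0.24 to 0.077 for *Tcap* and -0.17 to 0.10 for *Popdc2*. In the *Pax3* line it ranged from -0.046 to 0.36 for *Myh7*, -0.13 to 0.12 for *Tcap*, -0.26 to 0.13 for *Myoz2*, -0.074 to 0.21 for *Xirp1*, -0.45 to 0.017 for *Trdn* and -0.093 to 0.078 for *Smpx*. The difference between the lines ranged from -0.050 to 0.12 for *Actn2*, -0.21 to 0.0042 for *Pln*, -0.024 to 0.044 for *Atp2a2*, -0.0072 to 0.32 for *Sln*, -0.014 to 0.17 for *Gja5* and -0.25 to 0.068 for *Tcap*.

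What samples of the same number share beyond that number is not given in the labels. In the *Carm1* line the deviations of same-numbered mutant and wild-type libraries correlated at -0.072, -0.0020 and -0.066. In the *Pax3* line they correlated at 0.25, -0.22 and 0.41, and those of differently numbered libraries at -0.55 to 0.44. Such correlations cannot tell whether samples shared a litter or batch. With the replicate block 12 genes were called in the *Carm1* line, 3 lower and 8 higher in the *Pax3* line, and 12 for the difference between the lines. Depth limits the genes with the fewest counts, which were *Nppb*, *Trdn*, *Tcap* and *Xirp2* in both lines and also *Sln* in the *Pax3* line. *Sln* had 42, 26 and 40 counts in *Pax3* Sp2H/Sp2H and 50, 39 and 51 in wild type.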
